A study of Mus musculus with 3 samples.

Results

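Genes of lipid storage, fatty acid and triglyceride synthesis and cholesterol synthesis were described in 3 RNA sequencing libraries of mammary cells from FVB mice. The list named 38 genes, taken by gene name from tables of 22378 gene models, and 37 of them were found. Hmgcs1, which encodes an early enzyme of the cholesterol pathway, was not among the gene names analysed here. The first library, LCC (lung-colonizing cells), came from mammary cells injected into the veins of FVB recipients. Those found in the lungs after 1 day were sorted by the GFP fluorescence of cells from GFP mice, or by DDAO, a dye that had stained cells from FVB mice. It pooled 15 experiments, 42 lungs and 455880 cells. The labels give 8 FVB.GFP donor females and 4 recipients per experiment and 2 injections of 2500000 cells. How many of the experiments used DDAO-stained cells of FVB mice is not given here. The second library, E-Int29-Hi, combined 3 samples of mammary cells that had passed a sorting gate of EpCAM-intermediate and CD29-high staining, which the labels give as richer in colonizing cells. The third, MG, was labelled as whole gland that was not dissociated, also from 3 combined samples. All donors and recipients were of the FVB background. There was 1 library per group, so the differences below have no replicates behind them, no test was run, and every value describes these pooled libraries.

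Fat cells store triglyceride in droplets coated with perilipin and CIDE proteins, and secrete the hormones adiponectin, leptin and resistin. The mammary epithelium lies in such a fat pad, takes up fatty acids that lipoprotein lipase frees from the blood, makes others from citrate, and builds them into the fat of milk. The SREBP transcription factors switch on fatty acid and cholesterol synthesis genes when membrane sterol is low, and INSIG proteins hold them back when sterol is plentiful.

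Levels are given as FPKM, the authors' fragment number scaled to gene length and library size, which can be compared between genes. Changes are log2 of the ratio of FPKM + 1, which makes the changes of low genes smaller, and were read where at least 1 library of the pair reached 1 FPKM. A gene is called higher or lower where it was at least 4-fold apart on that scale, and a looser count at 2-fold is given beside it. Read numbers were not given, and LCC listed 6819 gene names at 0, E-Int29-Hi 4952 and MG 3163, so no plain ratio is given for a value under 1 FPKM, and a log2 change that rests on one depends on the pseudocount. Of the 37 genes, 35 had the status OK in all 3 libraries. Of these, 32 stood at 1 FPKM or more in at least 1 library, 25 in every library and 12 at 10 FPKM or more in every library. Adipoq, Cidec and Thrsp reached 1 FPKM in MG alone, so they could only be counted as lower in the comparisons with MG. More widely, a gene under 1 FPKM in 1 library of a pair could only be counted as lower there. Examples are Car3, Plin4 and Slc2a4 in LCC and Cidea in E-Int29-Hi.

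**Figure D1:**
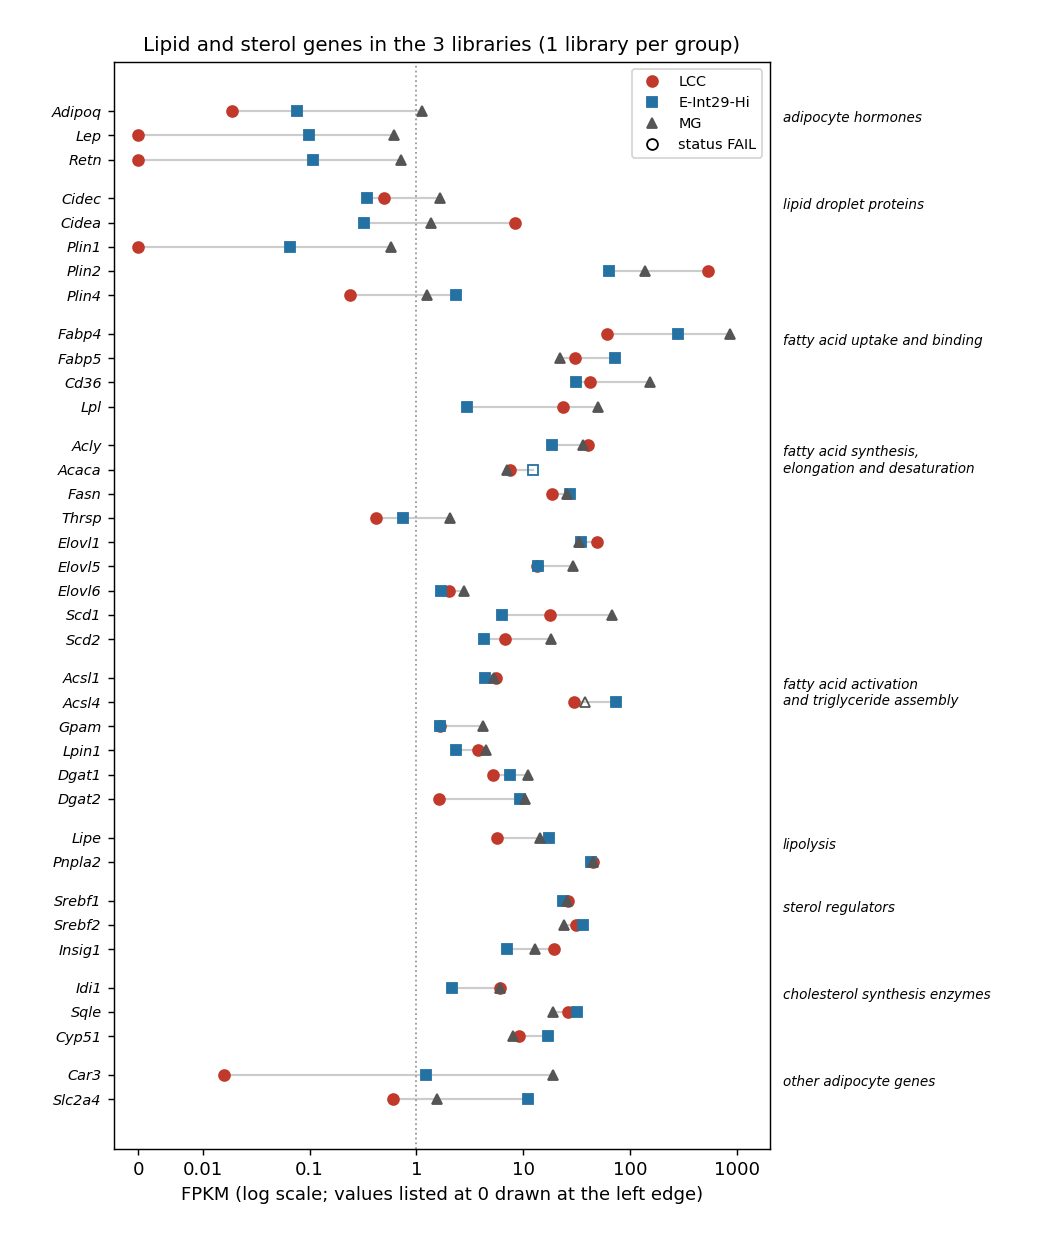
FPKM of the 37 lipid and sterol genes found (rows, grouped by role) on a log axis, with a red circle for LCC, a blue square for E-Int29-Hi and a grey triangle for MG, open symbols where the authors' status was FAIL, and values listed at 0 drawn at the left edge. Plin2 in LCC (526 FPKM) and Fabp4 in MG (845 FPKM) are the highest points, and the 3 hormone genes and Plin1 lie at or under 1.12 FPKM in each library.

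The hormone genes of fat cells were at or near 0 in all 3 libraries, MG included. Adipoq, the hormone adiponectin, stood at 0.0190 FPKM in LCC, 0.0765 FPKM in E-Int29-Hi and 1.12 FPKM in MG. Lep, leptin, was listed at 0 in LCC and stood at 0.0992 FPKM in E-Int29-Hi and 0.614 FPKM in MG. Retn, resistin, was listed at 0 in LCC and stood at 0.107 FPKM in E-Int29-Hi and 0.713 FPKM in MG. MG had the highest value of each hormone gene and LCC the lowest. Even in MG, 46.5% of all gene names had a lower level than Adipoq.

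The droplet proteins of fat cells showed the same low levels. Plin1, the perilipin of fat cell droplets, was listed at 0 in LCC and stood at 0.0657 FPKM in E-Int29-Hi and 0.575 FPKM in MG. Cidec, which fuses droplets in white fat, stood at 0.497 FPKM in LCC, 0.343 FPKM in E-Int29-Hi and 1.67 FPKM in MG. Plin4 stood at 0.238 FPKM in LCC, 2.32 FPKM in E-Int29-Hi and 1.26 FPKM in MG, so it was highest in the gated cells. Summed over Adipoq, Lep, Retn, Cidec, Plin1 and Plin4, the level was 0.754 FPKM in LCC, 3.01 FPKM in E-Int29-Hi and 5.96 FPKM in MG, with 3 of the 6 genes listed at 0 in LCC. In MG, labelled as gland that was not dissociated, each of these 6 genes stood at or under 1.67 FPKM. Whether that sample held the fat pad was not tested, and MG is used below as a name only. Other genes that fat cells express stood higher in MG, such as Fabp4 (845 FPKM) and Pparg (14.8 FPKM).

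Car3, a carbonic anhydrase abundant in fat and muscle, reached a higher level in MG than the fat cell genes above. It stood at 0.0159 FPKM in LCC, 1.23 FPKM in E-Int29-Hi and 18.9 FPKM in MG, with log2 changes of -4.29 for LCC against MG and -3.16 for E-Int29-Hi against MG. Slc2a4, the insulin-responsive glucose transporter GLUT4 of fat and muscle, ran in another order. It stood at 0.608 FPKM in LCC, 11.1 FPKM in E-Int29-Hi and 1.56 FPKM in MG, a log2 change of -2.91 for LCC against E-Int29-Hi and 2.24 for E-Int29-Hi against MG. Basal cell genes were also highest in E-Int29-Hi, where 8 markers of basal and myoepithelial cells summed to 653 FPKM in LCC, 7315 FPKM in E-Int29-Hi and 460 FPKM in MG. Their part in the Slc2a4 values was not tested.

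A further list held 12 other fat cell genes, and none was 4-fold higher in LCC or E-Int29-Hi than in MG. Cfd, the serum protease adipsin, was listed at 0 in LCC and stood at 0.606 FPKM in E-Int29-Hi and 6.10 FPKM in MG (log2 change -2.14 for E-Int29-Hi against MG). Pparg, the nuclear receptor that drives fat cell differentiation, stood at 5.94 FPKM in LCC, 2.04 FPKM in E-Int29-Hi and 14.8 FPKM in MG (log2 change -2.38 for E-Int29-Hi against MG). Aqp7, a glycerol channel, stood at 0.0484 FPKM in LCC, 0.915 FPKM in E-Int29-Hi and 4.11 FPKM in MG, and Aoc3, an amine oxidase, at 0.820 FPKM in LCC, 8.90 FPKM in E-Int29-Hi and 6.67 FPKM in MG. Angptl4, an inhibitor of lipoprotein lipase, was the most abundant of the list, at 83.0 FPKM in LCC, 103 FPKM in E-Int29-Hi and 68.9 FPKM in MG, and Cebpa, a partner of Pparg in fat cells, stood at 11.3 FPKM in LCC, 16.9 FPKM in E-Int29-Hi and 14.8 FPKM in MG. Against MG, 3 of the 9 genes compared were lower in LCC (Cfd, Aqp7 and Aoc3) and 2 of 9 in E-Int29-Hi (Cfd and Pparg), beside 2.63% and 3.97% of all genes. Cfd, Aqp7 and Aoc3 were under 1 FPKM in LCC, and Cfd in E-Int29-Hi, so there they could only be counted as lower. At 2-fold, 5 were lower in LCC and 4 in E-Int29-Hi, 55.6% and 44.4%, beside 12.8% and 15.5% of all genes, with 0 higher in both. The 5 brown fat markers summed to 3.35 FPKM in LCC, 2.83 FPKM in E-Int29-Hi and 4.83 FPKM in MG, with Ucp1, the uncoupling protein, at 0.217 FPKM in LCC, 0.337 FPKM in E-Int29-Hi and 0.928 FPKM in MG and Zic1 listed at 0 in LCC and E-Int29-Hi.

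**Figure D2:**
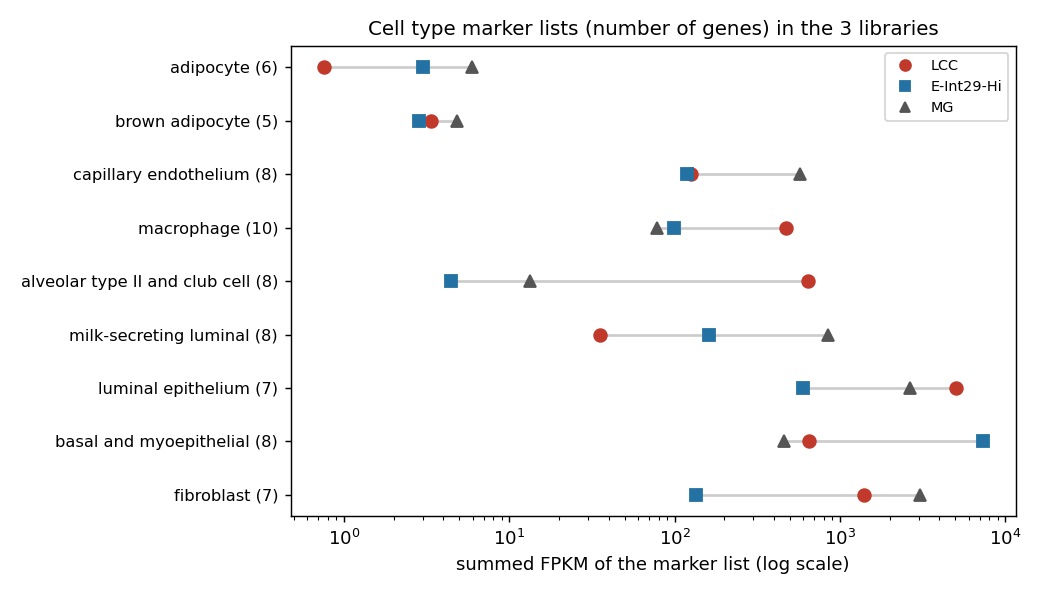
Summed FPKM (log axis) of each cell type marker list, with the number of genes in brackets, in LCC (red circle), E-Int29-Hi (blue square) and MG (grey triangle). The adipocyte and brown adipocyte sums lie under 6 FPKM in all 3 libraries, while the endothelial and milk-secreting sums are highest in MG and the macrophage and lung epithelium sums are highest in LCC.

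The other droplet genes of the list, Plin2 and Cidea, were highest in LCC and lowest in E-Int29-Hi. Plin2, the droplet coat protein of most cell types and of milk fat globules, stood at 526 FPKM in LCC, 63.4 FPKM in E-Int29-Hi and 136 FPKM in MG, and 99.6% of all gene names were lower in LCC. The level in LCC was 8.30 times that in E-Int29-Hi (log2 change 3.03) and 3.87 times that in MG (log2 change 1.95, just under 4-fold). Cidea, a droplet protein of brown fat and of the lactating gland, stood at 8.40 FPKM in LCC, 0.326 FPKM in E-Int29-Hi and 1.37 FPKM in MG, with log2 changes of 2.83 against E-Int29-Hi and 1.99 against MG. Plin2 and Cidea were the 2 of 32 genes at least 2-fold higher in LCC than in both other libraries (background 7.2% of 12772 genes). Of the brown fat markers, Ucp1 was under 1 FPKM in each library. Dio2 stood at 1.07 FPKM in LCC, 1.24 FPKM in E-Int29-Hi and 1.67 FPKM in MG, and Cox7a1 was highest in LCC, at 1.90 FPKM, with 0.860 FPKM in E-Int29-Hi and 0.640 FPKM in MG. The part of brown fat in the Cidea values was not tested.

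Of the 10 other droplet and lipolysis genes chosen for comparison, 7 could be compared, and 2 of these were higher in LCC than in MG, beside 1.33% of all genes, and 1 lower, beside 2.63%. At 2-fold the counts were also 2 and 1, 28.6% and 14.3%, beside 10.9% and 12.8% of all genes. Hilpda, an inhibitor of the lipase ATGL that hypoxia induces, stood at 162 FPKM in LCC, 90.0 FPKM in E-Int29-Hi and 26.7 FPKM in MG (log2 change 2.56 for LCC against MG). G0s2, a second ATGL inhibitor, stood at 12.6 FPKM in LCC, 6.17 FPKM in E-Int29-Hi and 1.86 FPKM in MG (log2 change 2.25 for LCC against MG). Mgll, the last lipase of triglyceride breakdown, ran the other way, at 2.82 FPKM in LCC, 25.4 FPKM in E-Int29-Hi and 43.3 FPKM in MG (log2 changes of -2.79 and -3.54 for LCC).

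Of the 2 lipases of the list, Pnpla2 varied less. Pnpla2, which encodes ATGL, the first lipase of triglyceride breakdown, stood at 45.1 FPKM in LCC, 43.1 FPKM in E-Int29-Hi and 45.0 FPKM in MG, the smallest spread of the 32 genes that reached 1 FPKM. Lipe, hormone-sensitive lipase, stood at 5.71 FPKM in LCC, 17.2 FPKM in E-Int29-Hi and 14.2 FPKM in MG, at least 2-fold lower in LCC than in both others.

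The summed markers of macrophages and of lung epithelium were highest in LCC, each sum carried by 1 or 2 genes. The 10 macrophage markers summed to 472 FPKM in LCC, 98.7 FPKM in E-Int29-Hi and 78.3 FPKM in MG, led by Lyz2 (232 FPKM in LCC, 60.6 FPKM in E-Int29-Hi and 28.5 FPKM in MG) and Ctss (162 FPKM in LCC, 9.34 FPKM in E-Int29-Hi and 14.5 FPKM in MG). Of the 10, 7 were highest in LCC and 3, Mrc1, Chil3 and Fcgr1, in MG. Marco, a marker of alveolar macrophages, stood at 0.576 FPKM in LCC, 0.211 FPKM in E-Int29-Hi and 0.141 FPKM in MG, and Chil3, another, at 0.980 FPKM in LCC, 0.0140 FPKM in E-Int29-Hi and 1.996 FPKM in MG. Itgax, of the same list, differed from these 2, at 10.8 FPKM in LCC, 0.462 FPKM in E-Int29-Hi and 0.915 FPKM in MG. The 8 lung epithelium markers summed to 642 FPKM in LCC, 4.44 FPKM in E-Int29-Hi and 13.3 FPKM in MG, led in LCC by Scgb1a1 (572 FPKM) and Sftpc (36.3 FPKM), with Scgb3a2 at 13.6 FPKM there and listed at 0 in E-Int29-Hi and MG. Of these 8, 7 were highest in LCC and 1, Abca3, in MG. Luminal epithelium markers (7 genes) summed to 5061 FPKM in LCC, 600.0 FPKM in E-Int29-Hi and 2668 FPKM in MG, and fibroblast markers (7 genes) to 1400 FPKM in LCC, 135 FPKM in E-Int29-Hi and 3038 FPKM in MG. Macrophages and alveolar type II cells are known to hold lipid droplets, and their part in the Plin2, Cidea and Hilpda values was not tested, nor was that of macrophages in Lpl. In such pooled libraries, fewer cells of a type and less RNA per cell cannot be told apart.

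Fatty acid uptake genes were highest in MG, apart from Fabp5. Fabp4, a fatty acid carrier of fat cells and capillary endothelium, stood at 60.4 FPKM in LCC, 276 FPKM in E-Int29-Hi and 845 FPKM in MG, with log2 changes of -2.17 for LCC against E-Int29-Hi, -3.78 for LCC against MG and -1.61 for E-Int29-Hi against MG. Cd36, a fatty acid receptor of endothelium, macrophages and fat cells, stood at 41.6 FPKM in LCC, 30.9 FPKM in E-Int29-Hi and 152 FPKM in MG (log2 change -1.84 for LCC against MG and -2.26 for E-Int29-Hi against MG). Lpl, lipoprotein lipase, stood at 23.5 FPKM in LCC, 2.97 FPKM in E-Int29-Hi and 49.97 FPKM in MG. It was 7.92 times as high in LCC as in E-Int29-Hi (log2 change 2.63), and its log2 change of -3.68 for E-Int29-Hi against MG was the lowest of the list in that pair.

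An endothelial gene of lipase handling had the same order of libraries as Fabp4. Gpihbp1, which anchors lipoprotein lipase to capillary endothelium, stood at 3.51 FPKM in LCC, 7.71 FPKM in E-Int29-Hi and 27.1 FPKM in MG (log2 change -2.64 for LCC against MG). The 8 endothelial markers summed to 127 FPKM in LCC, 120 FPKM in E-Int29-Hi and 576 FPKM in MG, led by Cdh5 (25.9 FPKM in LCC, 23.1 FPKM in E-Int29-Hi and 145 FPKM in MG) and Pecam1 (40.5 FPKM in LCC, 31.3 FPKM in E-Int29-Hi and 133 FPKM in MG). Their part in the Fabp4 and Cd36 values was not tested. Of the 7 other uptake genes, Vldlr, a lipoprotein receptor, had the highest level in LCC and E-Int29-Hi, and Gpihbp1 in MG. Vldlr stood at 21.0 FPKM in LCC, 9.83 FPKM in E-Int29-Hi and 18.1 FPKM in MG.

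Fabp5, the fatty acid carrier of epithelium and skin, stood apart from Fabp4. It stood at 30.6 FPKM in LCC, 71.6 FPKM in E-Int29-Hi and 22.0 FPKM in MG, a log2 change of -1.20 for LCC against E-Int29-Hi and 1.66 for E-Int29-Hi against MG. The gated cells were highest for Fabp5 and MG lowest, while Fabp4 was highest in MG and lowest in LCC. Fabp5 has processed copies elsewhere in the mouse genome, so reads could be split between them.

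Fatty acid synthesis enzymes were moderate in all 3 libraries, and the desaturases varied most. Scd1, which puts the first double bond into saturated fatty acids, stood at 17.6 FPKM in LCC, 6.32 FPKM in E-Int29-Hi and 67.6 FPKM in MG, a log2 change of 1.35 for LCC against E-Int29-Hi, -1.88 for LCC against MG and -3.23 for E-Int29-Hi against MG. Scd2, its close paralog, stood at 6.77 FPKM in LCC, 4.31 FPKM in E-Int29-Hi and 18.0 FPKM in MG. Both had the same order of libraries, and since their sequences are similar, their separate values are uncertain. Elovl5, an elongase of polyunsaturated fatty acids, was also highest in MG, at 13.3 FPKM in LCC, 13.6 FPKM in E-Int29-Hi and 29.0 FPKM in MG.

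The central enzymes of the pathway differed less. Acly, which makes cytosolic acetyl-CoA from citrate, stood at 39.8 FPKM in LCC, 18.6 FPKM in E-Int29-Hi and 36.0 FPKM in MG (log2 change 1.06 for LCC against E-Int29-Hi). Fasn, fatty acid synthase, stood at 18.4 FPKM in LCC, 26.9 FPKM in E-Int29-Hi and 25.6 FPKM in MG, within 2-fold in each pair. Acaca, acetyl-CoA carboxylase, was listed at 7.54 FPKM in LCC, 12.3 FPKM in E-Int29-Hi and 7.03 FPKM in MG, but the authors' status was FAIL in E-Int29-Hi, so it entered no count. Elovl1, an elongase of saturated very long chains, stood at 48.4 FPKM in LCC, 34.5 FPKM in E-Int29-Hi and 33.1 FPKM in MG, and Elovl6, which lengthens palmitate, at 2.03 FPKM in LCC, 1.69 FPKM in E-Int29-Hi and 2.77 FPKM in MG. Thrsp, a regulator of lipogenesis in fat, liver and mammary gland, stood at 0.423 FPKM in LCC, 0.741 FPKM in E-Int29-Hi and 2.06 FPKM in MG.

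Of 20 other synthesis genes chosen for comparison, those of milk fat were highest in MG. Btn1a1, butyrophilin of the milk fat globule membrane, stood at 3.39 FPKM in LCC, 4.55 FPKM in E-Int29-Hi and 27.4 FPKM in MG, and Xdh, xanthine oxidoreductase, its partner in fat globule secretion, at 10.4 FPKM in LCC, 32.6 FPKM in E-Int29-Hi and 45.1 FPKM in MG. Both were lower in LCC than in MG (log2 changes of -2.69 and -2.02). They were the 2 of 17 genes compared that were lower there, 11.8%, beside 2.63% of all genes, with 0 higher, beside 1.33%. The 8 milk-secreting markers summed to 35.6 FPKM in LCC, 162 FPKM in E-Int29-Hi and 852 FPKM in MG, led by Csn3 and, in MG, Lalba (19.5 FPKM in LCC, 65.6 FPKM in E-Int29-Hi and 466 FPKM in MG for Csn3, and 0.0375 FPKM in LCC, 4.55 FPKM in E-Int29-Hi and 94.2 FPKM in MG for Lalba), with Wap listed at 0 in LCC. Their part in the Scd1, Btn1a1 and Xdh values was not tested. Acsl3, an acyl-CoA synthetase of lipid droplets, stood at 13.8 FPKM in LCC, 44.0 FPKM in E-Int29-Hi and 26.1 FPKM in MG. Acsl5, of the same family, stood at 31.3 FPKM in LCC, 6.52 FPKM in E-Int29-Hi and 23.4 FPKM in MG, and Gpat3, an acyltransferase named Agpat9 in the tables, at 11.8 FPKM in LCC, 1.99 FPKM in E-Int29-Hi and 5.33 FPKM in MG. Acsl5 and Gpat3 were the 2 of 18 genes higher in LCC than in E-Int29-Hi (log2 changes of 2.11 and 2.10), beside 4.64% of all genes, with 0 lower, beside 4.35%. Both were close to the 4-fold limit, and other scalings were not applied to this list. At 2-fold, 4 were higher and 3 lower, 22.2% and 16.7%, beside 21.2% and 14.1% of all genes, so these shares lay near those of all genes.

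Apart from Acsl4, given below, triglyceride assembly genes were low, and Dgat2 was the lowest in LCC. Dgat2, which adds the last acyl chain to triglyceride made from new fatty acids, stood at 1.62 FPKM in LCC, 9.20 FPKM in E-Int29-Hi and 10.2 FPKM in MG. Its log2 change was -2.10 for LCC against MG and -1.96, just under 4-fold, for LCC against E-Int29-Hi. Dgat1, which catalyses the same step, stood at 5.23 FPKM in LCC, 7.45 FPKM in E-Int29-Hi and 10.9 FPKM in MG. Dgat2, Lipe, Fabp4 and Car3 were the 4 of 32 genes at least 2-fold lower in LCC than in both other libraries (background 4.48% of 12772 genes).

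On the scale of FPKM + 1, the earlier steps of assembly were within 2-fold in each pair, apart from Acsl4. Gpam was so by a small margin, with log2 changes of -0.965 for LCC against MG and -0.967 for E-Int29-Hi against MG. Its plain ratios to MG were 0.396 in LCC and 0.395 in E-Int29-Hi, past 2-fold. Gpam, the mitochondrial acyltransferase that starts glycerolipid synthesis, stood at 1.66 FPKM in LCC, 1.65 FPKM in E-Int29-Hi and 4.19 FPKM in MG, and Lpin1, a phosphatidate phosphatase, at 3.75 FPKM in LCC, 2.35 FPKM in E-Int29-Hi and 4.42 FPKM in MG. Acsl1, the acyl-CoA synthetase of fat and liver, stood at 5.50 FPKM in LCC, 4.34 FPKM in E-Int29-Hi and 5.30 FPKM in MG. Acsl4, which prefers arachidonate, was listed at 29.8 FPKM in LCC, 73.3 FPKM in E-Int29-Hi and 37.3 FPKM in MG, with the authors' status FAIL in MG. Between the 2 libraries where its status was OK, its log2 change was -1.27 for LCC against E-Int29-Hi.

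The cholesterol branch showed no gene of the list past 4-fold in any pair. Srebf1 and Srebf2, the SREBP genes, were within 2-fold in each pair, at 26.1 and 31.1 FPKM in LCC, 23.5 and 36.4 in E-Int29-Hi, and 25.7 and 24.1 in MG. Insig1, which retains SREBP in the endoplasmic reticulum and is itself an SREBP target, stood at 19.5 FPKM in LCC, 6.99 FPKM in E-Int29-Hi and 12.8 FPKM in MG (log2 change 1.36 for LCC against E-Int29-Hi). Idi1, isopentenyl diphosphate isomerase, stood at 6.05 FPKM in LCC, 2.17 FPKM in E-Int29-Hi and 5.99 FPKM in MG (log2 changes of 1.16 for LCC against E-Int29-Hi and -1.14 for E-Int29-Hi against MG).

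The later enzymes of the list had another order. Sqle, squalene epoxidase, stood at 25.8 FPKM in LCC, 31.8 FPKM in E-Int29-Hi and 18.7 FPKM in MG, and Cyp51, the lanosterol demethylase, at 9.06 FPKM in LCC, 16.9 FPKM in E-Int29-Hi and 8.00 FPKM in MG. For both genes E-Int29-Hi was highest and MG lowest, whereas for Insig1 and Idi1 E-Int29-Hi was lowest.

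Of the 23 other sterol genes chosen for comparison, 3 were higher in LCC than in E-Int29-Hi and 0 lower among 21 compared, beside 4.64% and 4.35% of all genes. They were Fdps, farnesyl diphosphate synthase, at 10.8 FPKM in LCC, 1.94 FPKM in E-Int29-Hi and 3.24 FPKM in MG, Msmo1, a methylsterol oxidase named Sc4mol in the tables, at 23.5 FPKM in LCC, 4.34 FPKM in E-Int29-Hi and 9.57 FPKM in MG, and Dhcr7, the last reductase, at 9.30 FPKM in LCC, 1.07 FPKM in E-Int29-Hi and 2.93 FPKM in MG. Fdps was just past 4-fold over E-Int29-Hi, the log2 changes of Msmo1 and Dhcr7 were 2.20 and 2.31, and the 3 genes had 1.47, 1.21 and 1.39 against MG. Other scalings were not applied to this list. At 2-fold, 5 of the 21 were higher in LCC than in E-Int29-Hi and 1 lower, 23.8% and 4.76%, beside 21.2% and 14.1% of all genes. The share higher at 2-fold thus lay near that of all genes. The median over the 21 genes was 0.70 for LCC against E-Int29-Hi, beside 0.26 over all 12147 genes, and 0.06 for LCC against MG, beside 0.01 over all 12443. Insig2, a relative of Insig1, had the highest level of the list in LCC (28.1 FPKM in LCC, 14.5 FPKM in E-Int29-Hi and 13.3 FPKM in MG).

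**Figure D3:**
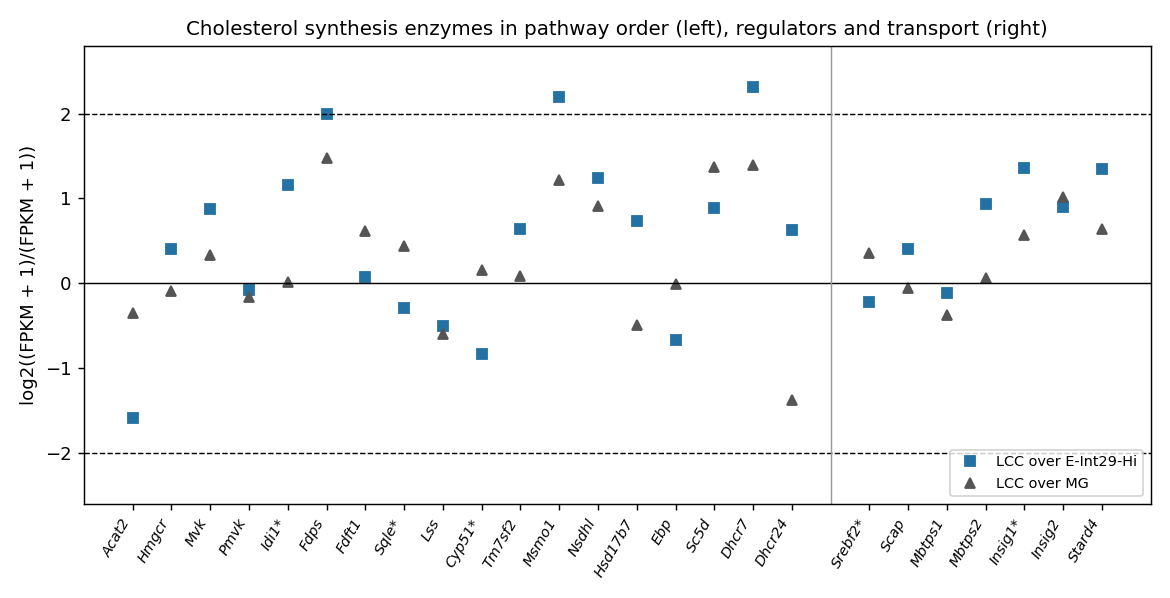
Log2 change of LCC over E-Int29-Hi (blue squares) and of LCC over MG (grey triangles) for cholesterol synthesis enzymes in pathway order, left of the vertical line, and for regulators and a sterol transport gene, right of it; asterisks mark genes of the 38-gene list and dashed lines mark 4-fold. Msmo1 and Dhcr7 reach 2.20 and 2.31 over E-Int29-Hi, while Sqle (-0.29) and Cyp51 (-0.83) lie below 0.

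Promoter sequences from RefSeq (build GRCm38.p6, from 250 bases before to 50 after each start) matched 27 of the 38 genes. The SREBP site TCACNCCAC was found on either strand in 2 of the 27, Acsl1 and Hmgcs1, and in 1.44% of 27025 genes with a promoter. The E-box CACGTG, which SREBP-1 and other factors can bind, was found in 4, namely Elovl5, Insig1, Lipe and Plin2, and in 8.09% of all genes. The CCAAT box, a site of NF-Y, was found in 17 and in 41.1% of all genes, and the direct-repeat site of PPAR, also read on both strands, in 0 of 27 and in 0.0481% of all genes. A match is a description of letters and not of binding. The windows from 180 bases before the start to 10 after it are shown for Plin2, the most abundant droplet gene in LCC, for Insig1 and Idi1, which were lowest in E-Int29-Hi, and for Cyp51, which was highest there. Capitals mark the E-box CACGTG and the CCAAT box, read as ATTGG on the other strand.
Plin2 (chr4:86670050-86670239, minus strand): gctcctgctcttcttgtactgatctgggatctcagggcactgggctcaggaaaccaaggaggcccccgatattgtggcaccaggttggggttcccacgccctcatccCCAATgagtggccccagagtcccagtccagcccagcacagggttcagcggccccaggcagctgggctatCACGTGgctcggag
Insig1 (chr5:28071232-28071421, plus strand): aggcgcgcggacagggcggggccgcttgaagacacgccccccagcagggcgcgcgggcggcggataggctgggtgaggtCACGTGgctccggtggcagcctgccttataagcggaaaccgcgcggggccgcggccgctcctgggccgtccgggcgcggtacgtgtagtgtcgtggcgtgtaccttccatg
Idi1 (chr13:8885426-8885615, plus strand): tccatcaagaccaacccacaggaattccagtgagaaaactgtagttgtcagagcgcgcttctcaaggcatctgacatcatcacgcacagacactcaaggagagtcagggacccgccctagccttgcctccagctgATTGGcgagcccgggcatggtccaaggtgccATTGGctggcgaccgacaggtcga
Cyp51 (chr5:4104688-4104877, minus strand): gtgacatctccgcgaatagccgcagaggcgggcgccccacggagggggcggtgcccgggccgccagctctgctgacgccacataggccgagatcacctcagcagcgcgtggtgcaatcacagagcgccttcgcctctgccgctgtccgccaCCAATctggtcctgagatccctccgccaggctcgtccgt
Plin2 holds an E-box that begins 4 bases before the start and a CCAAT box 73 bases before it, and Insig1 an E-box 101 bases before. Idi1 holds CCAAT boxes 45 and 14 bases before the start and Cyp51 a CCAAT box 29 bases before it. Insig1 has a CCAAT box too, 216 bases before the start and outside the window shown. Insig1 and Idi1 had the same order of libraries.

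Cholesterol export and fatty acid breakdown genes were read as neighbours of the pathway. Apoe, the lipid carrier apolipoprotein E, stood at 133 FPKM in LCC, 1541 FPKM in E-Int29-Hi and 435 FPKM in MG (log2 change -3.53 for LCC against E-Int29-Hi). Abca1, a cholesterol exporter, stood at 7.41 FPKM in LCC, 13.7 FPKM in E-Int29-Hi and 50.7 FPKM in MG (log2 change -2.62 for LCC against MG). Of 8 export and LXR genes, Apoe and Abca1 were the ones past 4-fold in any pair. That is 1 of 8 lower in LCC than in E-Int29-Hi, 12.5%, beside 4.35% of all genes. Against MG it is also 1 of 8 lower in LCC, beside 2.63%. Of 13 fatty acid oxidation genes, 1, Pdk4, which spares glucose by blocking pyruvate dehydrogenase, was past 4-fold. Its log2 change was 4.20 for LCC against MG and 4.33 for E-Int29-Hi against MG. In each of these pairs 12 genes could be compared, so the share higher was 8.33%, beside 1.33% and 2.6% of all genes. Acadl, an acyl-CoA dehydrogenase, stood at 45.1 FPKM in LCC, 39.3 FPKM in E-Int29-Hi and 32.2 FPKM in MG.

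Set against the whole of the transcriptome, LCC differed from E-Int29-Hi at these genes in both directions. Of 29 genes compared, 3 were higher (Plin2, Cidea and Lpl), 10.3%, beside 4.64% of all 12147 genes. Those lower were 2 (Slc2a4 and Fabp4), 6.9%, beside 4.35% of all genes. At 2-fold, 7 were higher and 7 lower, 24.1% each, beside 21.2% and 14.1% of all genes, so the share higher lay near that of all genes. The median over the 29 was 0.06, beside 0.26 over all genes, and it turned to -0.18 when each library was divided by its median ratio, which brought the median of all genes to 0.00, and to -0.05 as TPM, so it gives no direction. With median ratios, 5 were higher and 8 lower at 2-fold, and over all genes 451 were higher and 700 lower at 4-fold, against 564 and 528 as deposited. As TPM, 3 genes of the list were higher and 5 lower at 4-fold. With a pseudocount of 5 FPKM, Cidea (1.33), Lpl (1.84) and Slc2a4 (-1.52) no longer passed 4-fold.

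LCC against MG gave more genes lower than higher. Of 32 genes compared, 0 were higher, beside 1.33% of all 12443 genes, with Cidea (1.99) and Plin2 (1.95) just under the limit. The 3 lower genes were Car3, Fabp4 and Dgat2, 9.38%, beside 2.63% of all genes, with Scd1 (-1.88) and Cd36 (-1.84) next. At 2-fold, 2 were higher and 11 lower, 6.25% and 34.4%, beside 10.9% and 12.8% of all genes. The median of -0.56 stood beside 0.01 over all genes, but it was 0.0082 when the filter was raised to 5 FPKM. As TPM, 176 of 14115 genes were higher and 887 lower at 4-fold, against 166 and 327 of 12443 as deposited. More genes passed the filter as TPM, so these counts are not like for like. With a pseudocount of 5 FPKM, Dgat2 (-1.20) no longer passed.

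E-Int29-Hi against MG also gave more genes lower than higher, but this comparison shares the MG library with that of LCC, so their likeness is not read as a result. Of 32 genes compared, 1 was higher (Slc2a4), 3.12%, beside 2.6% of all 12430 genes, and 4 were lower (Lpl, Scd1, Car3 and Cd36), 12.5%, beside 3.97%. At 2-fold, 2 were higher (Slc2a4 and Fabp5), 6.25%, and 9 lower, 28.1%, beside 8.99% and 15.5% of all genes. The median was -0.74, beside -0.23 over all genes. With median ratios, which brought the median of all genes to 0.07, the median of the 32 was -0.46 with 4 higher and 6 lower at 2-fold, and over all genes 465 were higher and 356 lower at 4-fold, against 323 and 494 as deposited. As TPM, 381 of 14122 genes were higher and 1042 lower, counted over more genes than the 12430 as deposited. Cd36 (-1.93) no longer passed 4-fold with median ratios, nor did Car3 (-1.94) and Slc2a4 (1.297) with a pseudocount of 5 FPKM.

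**Figure D4:**
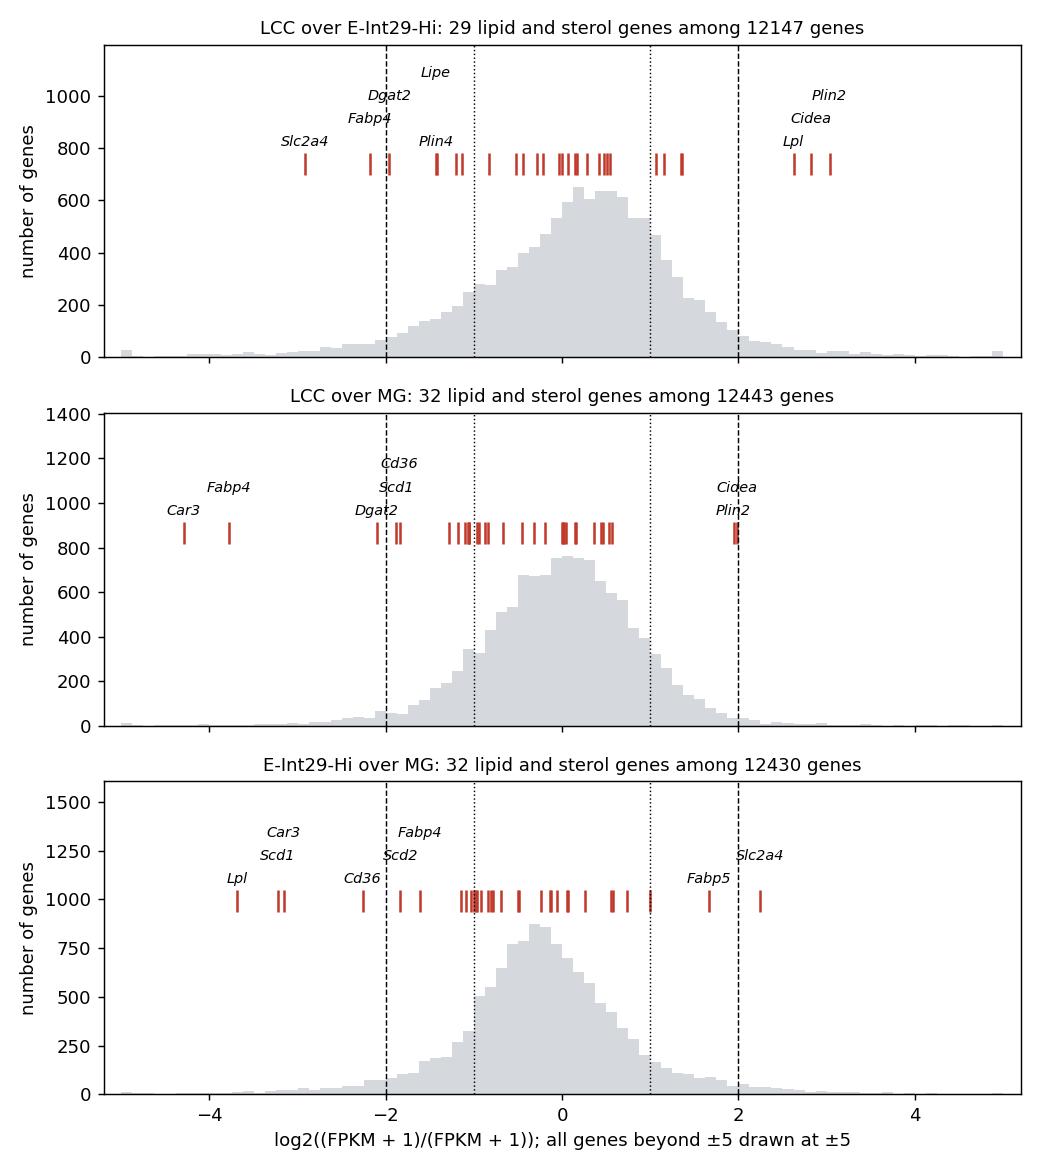
Log2 change of the lipid and sterol genes (red ticks, the larger ones named) over the distribution of all genes compared (grey bars, number of genes per bin) for LCC over E-Int29-Hi, LCC over MG and E-Int29-Hi over MG; dotted lines mark 2-fold and dashed lines 4-fold. Plin2, Cidea and Lpl lie beyond 4-fold on the right in the top panel, and Car3 lies beyond 4-fold on the left in the middle and bottom panels.

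By library, MG was most often the highest. MG was highest for 15 of the 32 genes by any amount (33.2% of 12772 genes), LCC for 9 (41.6%) and E-Int29-Hi for 8 (25.2%). MG was at least 2-fold higher than both others for 7 of 32, beside 5.57% of all genes, and these were Fabp4, Cd36, Lpl, Scd1, Scd2, Elovl5 and Car3. It was at least 2-fold lower than both for 0 of 32 (background 1.03%). E-Int29-Hi was at least 2-fold higher than both for Fabp5 and Slc2a4 (background 6.81%) and at least 2-fold lower than both for 4 of 32, namely Plin2, Lpl, Scd1 and Idi1 (7.38%). The choice of genes was made with earlier results of these libraries known, so these shares describe the list and support no direction of their own.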

How the data were processed

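Poly(A) RNA was captured with poly-T beads and sequenced from TruSeq libraries, per the labels' protocols. The authors deposited 1 table per library with FPKM and a status for each of 22378 gene models. The submitters' processing notes list Cufflinks 1.3.0, TopHat 1.4.1 and mm9, with no role or order. Which annotation was used is not given.

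Models were kept where each library had the status OK (22188 models), and of several models with a shared name the one with the highest summed FPKM, which left 22077 names. Listed genes were matched by name, or by the current symbol of their gene ID (20773 IDs had one). The pseudocount was 1 FPKM and the filter 1 FPKM in at least 1 library of a pair. The calls were at 4-fold and 2-fold, with no test, since each group was 1 library. Among genes under 0.1 FPKM, the commonest ratio of 2 libraries was shared by 15 of 319 genes between LCC and E-Int29-Hi (1.12), by 18 of 270 between LCC and MG (1.17) and by 129 of 1003 between E-Int29-Hi and MG (1.05), so relative depth rests on few genes. Of 1111 olfactory receptor genes, LCC had 9 above 0, E-Int29-Hi 35 and MG 288.

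All 38 genes were to be named, and of the other lists the 2 highest in FPKM and those past 4-fold. A gene of the sterol list that this rule names is not reported here. Ucp1, Dio2, Cox7a1, Marco, Chil3, Mrc1, Fcgr1, Itgax and Abca3 were named after their values were seen. The genes and lists were chosen with earlier results of these data known. Promoter sequences are from RefSeq, GRCm38.p6, another build than that of the tables, and were matched by symbol alone. The alternatives were other pseudocounts, filters, scalings and treatments of shared names and of status. Of the gene lists, they were applied to the 38 genes alone, so calls in the other lists carry no such check. Steps were tested on simulated data. Python 3.11.15, numpy 2.4.6, pandas 2.3.3 and matplotlib 3.10.9 were used.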

Additional observations from a re-analysis of the deposited data

How the results depend on the processing

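Low levels and the pseudocount limit these results most. For LCC against E-Int29-Hi, 5 genes were lower with a pseudocount of 0.1 FPKM and 5 as TPM, and with a pseudocount of 5 FPKM 1 was higher (Plin2) and 1 lower (Fabp4). For LCC against MG, 1 gene was higher (Cidea) and 6 lower with a pseudocount of 0.1 FPKM, and likewise 1 and 6 as TPM. The median of that pair as TPM was -1.31, where that of all genes fell to -0.35. For E-Int29-Hi against MG, 7 were lower with a pseudocount of 0.1 FPKM and 0 higher with a pseudocount of 5 FPKM. TPM values are larger than FPKM, so more low genes pass. With the filter at 5 FPKM the median for LCC against MG was 0.0082, above 0, with fewer genes compared. The other 4-fold counts and medians stayed within 1.5 times of the reported ones, though the median for LCC against E-Int29-Hi, 0.06, was -0.18 with median ratios, -0.05 as TPM and -0.03 with no filter. Of 93 values of single genes, 74 kept their side of the 4-fold limit under each alternative and none that was called changed direction. With median ratio scaling, Dgat2 passed the limit for LCC against E-Int29-Hi (-2.20) and Cd36 no longer did for E-Int29-Hi against MG (-1.93). An alternative chosen after the data were seen, status OK in both libraries of the pair alone, moved no 4-fold count. No paired analysis was possible because each group is 1 library.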
